A study of Homo sapiens with 10 samples.

Results

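The data are the response to nutlin-3a of 3 lines of U2OS, an established human osteosarcoma cell line with intact p53, that each carry a different shRNA against ARVCF. ARVCF belongs to the p120 group of catenins, which bind cadherins inside the cell. The members are 6 of the 10 RNA sequencing libraries of the series, chosen by label and paired by line number: shARVCF lines 1, 2 and 3 given 10 µM nutlin-3a for 24 h, and the same 3 lines left untreated. The other 4 libraries come from 1 line with a negative control shRNA, 3 of them with nutlin-3a and 1 untreated, and the series asks whether genes that p53 turns on respond otherwise when ARVCF is knocked down. All lines, the control included, carry an integrated lentiviral shRNA and were selected in puromycin at 1 µg/ml. Per the labels a single clone was treated in each case, so the shRNA and the clone cannot be told apart in a difference between lines. Each line has 1 library per treatment. The p-values therefore measure the spread of the response between these 3 pairs of libraries, and nothing says that repeat cultures of a line were made.

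The transcription factor p53 is held low in unstressed cells by MDM2, a ubiquitin ligase that binds it and is itself a p53 target. Nutlin-3a fills the p53-binding pocket of MDM2, and p53 then builds up and raises genes of cell cycle arrest, death, metabolism and signalling. Its target CDKN1A (p21) inhibits the cyclin-dependent kinases. The pocket proteins and the DREAM complex then repress S phase genes at E2F sites and mitotic genes at CHR and CCAAT elements in their promoters.

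Levels are the authors' scaled values per gene, which grow with transcript length as well as with abundance. Scaled totals over the 6 libraries ran from 17821751 to 18431324, and between 14287 and 14411 genes per library reached a value of 10. Of 26040 genes in the table, 14574 reached 10 in at least 3 of the 6 libraries and were tested. All log2 changes are of nutlin-3a minus untreated on the log2(value + 1) scale, which understates the change of genes near 0, and adjusted p-values are from limma with the line as a block.

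ARVCF itself, the target of the shRNAs, was detected in every library and rose with nutlin-3a. Its scaled value was 1284, 1188 and 1232 in nutlin-3a lines 1, 2 and 3, against 292, 343 and 338 in untreated lines 1, 2 and 3. The groups did not overlap, and the log2 change was 1.93 ± 0.09 (SE; adjusted p = 9.46e-09). In the control line ARVCF stood at 2928, 2571 and 2376 with nutlin-3a and at 618 untreated. The shARVCF mean was 47.0% of the control mean under nutlin-3a and 52.5% of the lone untreated control library, so each shARVCF line was below the control under the same treatment. The gene lies at chr22:19969896-20016808 on the minus strand of hg38.

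MDM2 and CDKN1A, both direct p53 targets, rose in each line. MDM2 stood at 21994, 18852 and 23800.0 in nutlin-3a lines, against 2051, 2019 and 2787 in untreated lines, a log2 change of 3.25 ± 0.07 (SE; adjusted p = 7.28e-11). CDKN1A stood at 28169.5, 27228 and 32933 in nutlin-3a lines and at 2636, 3283 and 4528 in untreated lines, a log2 change of 3.11 ± 0.11 (SE; adjusted p = 1.79e-06). Both genes were far above their untreated values in all 3 lines, and line 3 had the highest value of the 3 under either treatment.

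**Figure D1:**
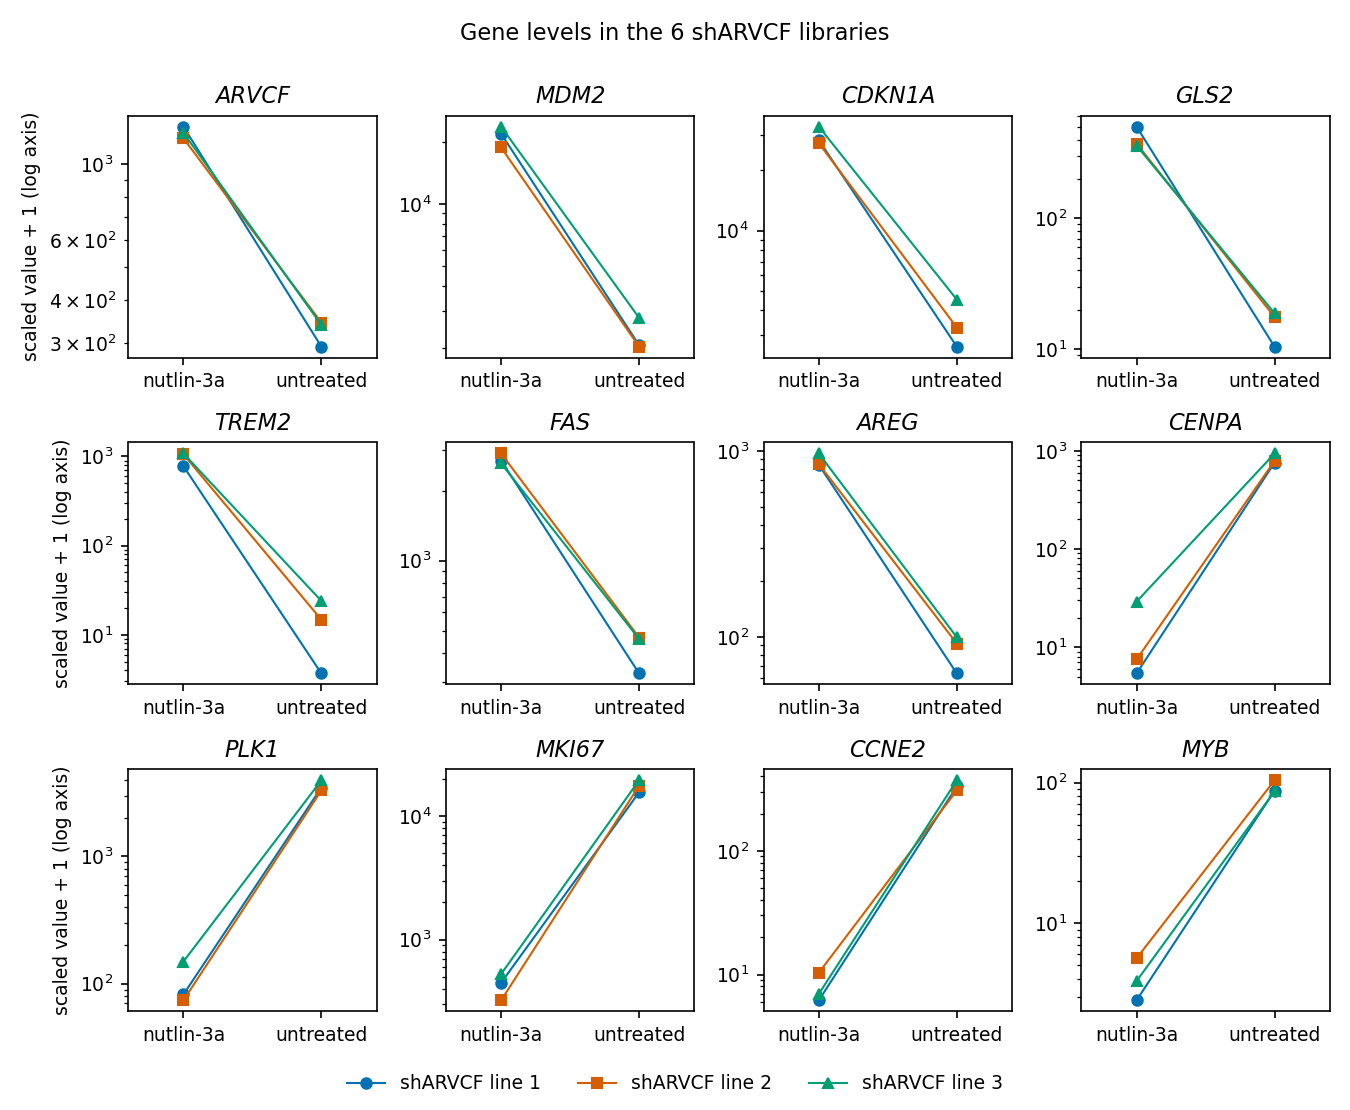
Scaled value + 1 (log axis, with its own range in each panel) of 12 genes in the nutlin-3a library (left) and the untreated library (right) of each shARVCF line, with a line joining the pair. ARVCF, MDM2, CDKN1A, GLS2, TREM2, FAS and AREG were higher with nutlin-3a in all 3 lines, and CENPA, PLK1, MKI67, CCNE2 and MYB were lower.

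The response was broad and mostly ran the same way in the 3 lines. With nutlin-3a 8566 genes were called at an adjusted p under 0.05, 58.8% of those tested. Of these, 4141 (28.4% of those tested) rose and 4425 (30.4%) fell. All 3 lines moved in the same direction for 10941 genes, 75.1% of those tested. They did so for 8539 of the 8566 called genes. This second count is largely built in, as a call rests on the spread of these same 3 changes. Most of the called changes were small: 6124, or 71.5% of them, were under 2-fold. The nutlin-3a and untreated libraries did not overlap for 3885 genes (26.7%) that were higher and 4197 genes (28.8%) that were lower.

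A change of at least 2-fold the same way in every line picked out 799 genes that were higher (5.48% of those tested) and 1014 that were lower (6.96%). The higher genes had a median value of 471 in nutlin-3a lines and 120.0 in untreated lines, with median log2 changes of 1.8, 1.69 and 1.70 in lines 1, 2 and 3. The lower genes had a median value of 80.5 in nutlin-3a lines and 491 in untreated lines, with median log2 changes of -2.08, -1.92 and -1.97. Large changes were more often decreases: 207 genes were at least 4-fold higher and 391 at least 4-fold lower in every line, and at 16-fold the counts were 14 and 100. Long noncoding RNAs made up 8.49% of the genes at least 2-fold higher, 4.15% of those at least 2-fold lower and 6.01% of all tested genes with a type in the annotation. Across genes, the log2 change of line 1 correlated with that of line 2 with Pearson r = 0.86, line 1 with line 3 with r = 0.83 and line 2 with line 3 with r = 0.86. Each r is over 14574 genes of 1 pair of libraries per line, with no test, as genes are not independent replicates.

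**Figure D2:**
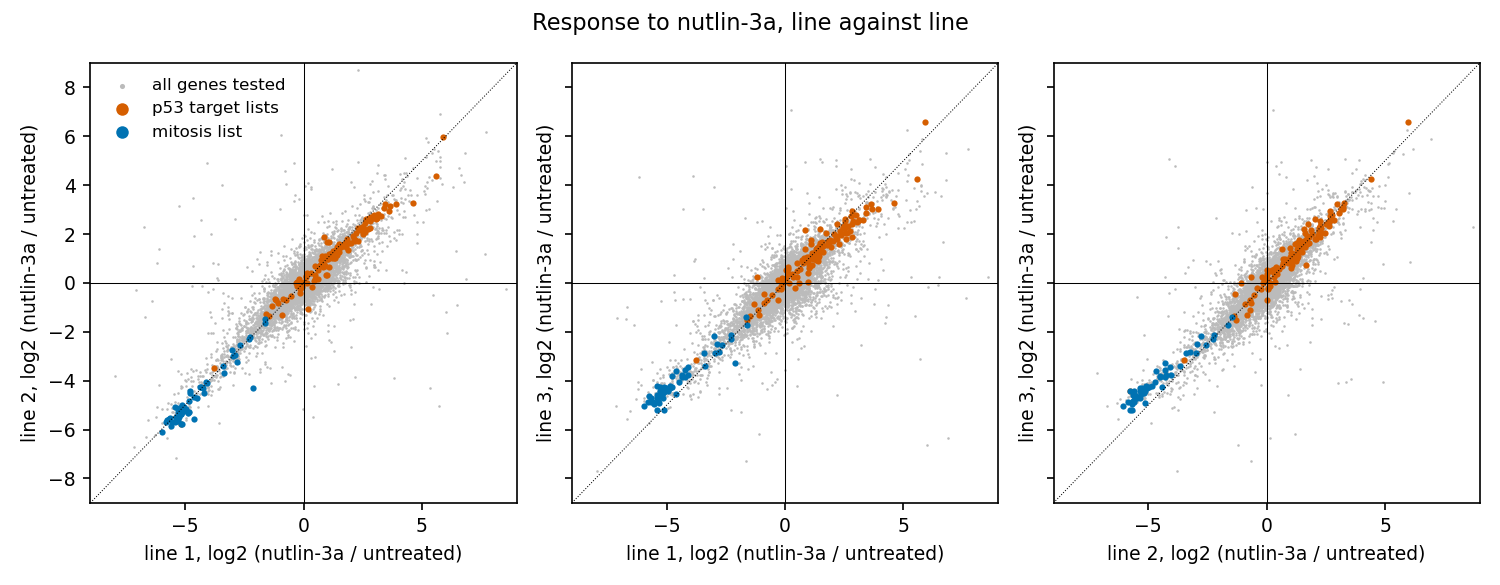
Log2 change with nutlin-3a of each tested gene (grey) in 1 shARVCF line against another, for the 3 pairs of lines, with members of the 6 p53 target lists in orange and of the mitosis list in blue. The dotted line marks equal changes; p53 targets lie mostly in the upper right and every mitosis gene in the lower left of each panel.

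Among named genes with a mean of at least 50, the highest log2 changes belonged to genes that were nearly silent without the drug. TREM2, a surface receptor of myeloid cells, stood at 778, 1057 and 1079 in nutlin-3a lines, against 2.68, 13.7 and 22.9 in untreated lines, a log2 change of 6.46 ± 0.53 (SE; adjusted p = 0.00216). CLCA2, a membrane protein known as a p53 target, stood at 219, 686 and 757 in nutlin-3a lines, against 2.68, 9.8 and 6.8 in untreated lines, a log2 change of 6.17 ± 0.22 (SE; adjusted p = 1.76e-09). In both genes line 1 was the lowest line under either treatment, yet its nutlin-3a value was far above every untreated value.

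Genes of the outer skin were among them. LCE1B and LCE1C encode late cornified envelope proteins. LCE1B stood at 103, 239.6 and 359 in nutlin-3a lines, against 0.894, 0.98 and 5.1 in untreated lines, and LCE1C at 66.6, 118 and 203, against 0.894, 0.98 and 1.7. Their log2 changes were 6.20 ± 0.32 (SE; adjusted p = 3.15e-08) and 5.77 ± 0.37 (SE; adjusted p = 1.51e-07), and in nutlin-3a libraries both were lowest in line 1 and highest in line 3. GRHL3, a transcription factor of epidermal differentiation, stood at 540.5, 609 and 649 in nutlin-3a lines, against 8.94, 16.3 and 21.2 in untreated lines, a log2 change of 5.26 ± 0.19 (SE; adjusted p = 2.42e-09). PVRL4, which encodes the adhesion molecule nectin-4, stood at 2132, 1999 and 2651 in nutlin-3a lines, against 38.4, 61.8 and 164 in untreated lines, a log2 change of 4.92 ± 0.46 (SE; adjusted p = 0.00937). It is not called when line 2 is left out (adjusted p = 0.18), although its libraries do not overlap.

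Enzyme genes made up the rest of the top ranks together with a few others. PADI4, a peptidylarginine deiminase that acts on histones, stood at 556, 824 and 797 in nutlin-3a lines, against 9.83, 18.6 and 17.84 in untreated lines, a log2 change of 5.49 ± 0.16 (SE; adjusted p = 4.15e-10). CYP4F3, which hydroxylates leukotriene B4, stood at 212, 156 and 348 in nutlin-3a lines, against 0.894, 2.94 and 7.65 in untreated lines, a log2 change of 5.82 ± 0.34 (SE; adjusted p = 1.27e-07). GLS2, the p53-induced mitochondrial glutaminase, stood at 500.3, 371 and 359 in nutlin-3a lines, against 9.48, 16.7 and 17.84 in untreated lines, a log2 change of 4.74 ± 0.26 (SE; adjusted p = 9.26e-07). All 3 were at least 26.8-fold higher in the fit. CCDC60 rose by 4.65 ± 0.53 on the log2 scale, a call lost with a pseudocount of 0.1 (adjusted p = 0.059), and TRIM49B and TRIM49C, near-identical duplicated copies whose reads could be shared, by 5.05 ± 0.63 and 4.95 ± 0.61.

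The rule of at least 50 in every library of one treatment and under 10 in every library of the other gave 11 genes that appeared with nutlin-3a and 13 that disappeared. LCE1B, LCE1C, CLCA2, CYP4F3 and CCDC60 were among those that appeared, with RNASE7, an antimicrobial ribonuclease of skin, and TRIM51, TRIM49 and TRIM43B. RNASE7 stood at 51.4, 57.7 and 169 in nutlin-3a lines, against 0.894, 3.8 and 6.53 in untreated lines. YTHDC1, a reader of methylated adenosine in nuclear RNA, was listed at 244, 105 and 241 in nutlin-3a lines and at 6.25, 6.86 and 8.5 in untreated lines. Those that disappeared were led by CCNE2 and included the kinetochore genes SPC24 and SPC25, the Fanconi gene FANCB, and MYB, ARHGAP11A, CCDC150, SHISA3, CCL24, TNFAIP6, DRP2 and MIR924HG, which are in none of the cell cycle lists. CCNE2, which encodes cyclin E2 of the G1 to S transition, stood at 5.19, 9.34 and 5.97 in nutlin-3a lines, against 330.3, 307 and 370.4 in untreated lines, a log2 change of -5.46 ± 0.24 (SE; adjusted p = 8.03e-09). MYB, a transcription factor of proliferating cells, stood at 1.83, 4.63 and 2.87 in nutlin-3a lines, against 86.6, 103 and 85.8 in untreated lines.

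Measured by the scaled value, which favours long transcripts, the 6 highest of the called genes at least 2-fold higher in every line were CTSB, AGRN, KRT17, GPC1, CDKN1A and ANKRD1. CTSB, the lysosomal protease cathepsin B, averaged 63527 ± 14808 in nutlin-3a lines and 20688 ± 3672 in untreated lines (SD, n = 3 each). AGRN and GPC1 encode the heparan sulfate proteoglycans agrin and glypican-1, with log2 changes of 1.11 ± 0.06 and 1.48 ± 0.05. KRT17, a basal keratin, had a log2 change of 1.36 ± 0.09, and ANKRD1, a target of the YAP coactivator, of 1.97 ± 0.15. Among called genes at least 2-fold lower in every line, the highest values belonged to PTMA, H1F0, TUBA1B, DHRS2, HDGF and CALM3. TUBA1B, an alpha-tubulin, averaged 4037 ± 456 in nutlin-3a lines and 31024 ± 2268 in untreated lines (SD, n = 3 each). H1F0, the linker histone H1.0 that is known for its rise in resting cells, fell here, with 11745 ± 884 in nutlin-3a lines and 30649.8 ± 2317 in untreated lines (SD, n = 3 each). DHRS2, a mitochondrial reductase, had a log2 change of -2.64 ± 0.06.

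Known p53 targets were grouped by role into 6 lists, read against 28.4% of all tested genes called higher and a median log2 change over all genes of -0.0047. In the feedback list, genes whose products act back on p53, 10 of 15 tested members rose and 1 fell, with a median of 1.03. ZMAT3, an RNA-binding p53 target, stood at 8916, 9522 and 10462 in nutlin-3a lines, against 1542, 1927 and 2209 in untreated lines, a log2 change of 2.36 ± 0.07 (SE; adjusted p = 3.96e-10). PPM1D, the phosphatase WIP1 that dephosphorylates p53, stood at 5508, 5873 and 5138 in nutlin-3a lines, against 2174, 2386 and 2351 in untreated lines, a log2 change of 1.26 ± 0.06 (SE; adjusted p = 1.93e-08). Both were at least 2-fold higher in every line. MDM4, the second inhibitor of p53, had a log2 change of 0.25 ± 0.11 and was not called (adjusted p = 0.0787). SPRED1, an inhibitor of RAS signalling, fell, with a log2 change of -0.22 ± 0.07 (SE; adjusted p = 0.016), and was not called when line 2 (0.12) or line 3 (0.058) was left out, or without the block (0.15).

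In the arrest list 15 of 17 tested members rose and 2 fell, with a median of 1.34, and 11 were at least 2-fold higher in every line. TP53INP1, a stress-induced cofactor of p53, stood at 4979, 4659 and 4861 in nutlin-3a lines, against 701, 811 and 903 in untreated lines, a log2 change of 2.59 ± 0.08 (SE; adjusted p = 2.89e-09). PHLDA3, an inhibitor of AKT, stood at 4986, 4606 and 4530.4 in nutlin-3a lines, against 1080.3, 1125 and 1298 in untreated lines, a log2 change of 2.01 ± 0.08 (SE; adjusted p = 1.28e-08). SFN, the 14-3-3 sigma protein of the G2 checkpoint, and PTP4A1, a phosphatase, rose by 1.39 ± 0.06 and 1.34 ± 0.06. The 2 members that fell were PRDM1, a transcriptional repressor, with a log2 change of -0.90, and GTSE1, with -5.14. The PRDM1 call was lost without the line as a block (adjusted p = 0.052). GTSE1 binds microtubules and is itself a cell cycle gene, held by the mitosis list too. It stood at 82.6, 54.2 and 147 in nutlin-3a lines, against 3059.8, 3035 and 3210.4 in untreated lines. GDF15, GADD45A and BTG2, chosen for their familiarity after their values were seen, rose by 3.71 ± 0.40, 2.85 ± 0.10 and 2.78 ± 0.11.

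In the cell death list 14 of 19 tested members rose and 2 fell, with a median of 1.11. PIDD1, a scaffold of caspase activation, stood at 1203, 1213 and 1507 in nutlin-3a lines, against 285, 319 and 374 in untreated lines, a log2 change of 2.00 ± 0.07 (SE; adjusted p = 2.49e-09). TRIAP1, which protects cells from p53-driven death, stood at 1389, 1505 and 1609 in nutlin-3a lines, against 342, 485 and 496 in untreated lines, a log2 change of 1.78 ± 0.09 (SE; adjusted p = 1.83e-08). BAX, the pore-forming effector of cell death, rose too, with a log2 change of 1.19 ± 0.07. SIVA1 and BCL2L11 (BIM), which both promote death, fell, with log2 changes of -1.09 and -0.80. FAS, a death receptor, and BBC3 (PUMA), both named after their values were seen, rose by 2.73 ± 0.10 and 2.36 ± 0.12.

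The repair list was split, with 8 of 14 tested members higher, 5 lower and a median of 0.47. RRM2B, the p53-induced subunit of ribonucleotide reductase, stood at 10387, 12129.8 and 10860.1 in nutlin-3a lines, against 2004, 2716 and 2771 in untreated lines, a log2 change of 2.17 ± 0.08 (SE; adjusted p = 1.06e-08). RPS27L and XPC, a sensor of DNA distortions, rose by 1.46 ± 0.06 and 1.11 ± 0.06. FEN1, the flap nuclease of replication, stood at 293, 341 and 455 in nutlin-3a lines, against 4011, 3825 and 4015 in untreated lines, with a log2 change of -3.46. FANCC, a Fanconi anemia protein, XRCC5, the Ku80 subunit of end joining, and TDG, a DNA glycosylase, fell too, with log2 changes of -1.39, -0.52 and -0.27. The TDG call was lost without line 2 (adjusted p = 0.30), without the block (0.062) and with other scaling or moderation.

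In the metabolism list 22 of 28 tested members rose and 1 fell, with a median of 1.44 and 17 members at least 2-fold higher in every line. TP53I3, a quinone reductase, stood at 10304, 10707 and 11767 in nutlin-3a lines, against 1443, 1657 and 1538 in untreated lines, a log2 change of 2.82 ± 0.06 (SE; adjusted p = 7.98e-11). FUCA1, the lysosomal fucosidase, stood at 3476, 3408 and 3497 in nutlin-3a lines, against 510.2, 539 and 527 in untreated lines, a log2 change of 2.72 ± 0.06 (SE; adjusted p = 1.06e-10). In both genes the 3 lines lay close together under each treatment. FDXR, which donates electrons to mitochondrial cytochromes P450, and TIGAR, a brake on glycolysis, rose by 2.67 ± 0.07 and 2.22 ± 0.06. The member that fell was SLC7A11, the cystine importer known to be repressed by p53, at 794, 813 and 1118 in nutlin-3a lines, against 1972, 1548 and 2035 in untreated lines.

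In the list of surface and signalling targets 25 of 31 tested members rose and 2 fell, with the highest median of the 6 lists, 1.70. CYFIP2, a subunit of the WAVE actin regulator, stood at 8504, 7385 and 7785 in nutlin-3a lines, against 1361, 1199 and 1554 in untreated lines, a log2 change of 2.53 ± 0.07 (SE; adjusted p = 6.35e-10). CD82, a tetraspanin, and CSF1, the growth factor of macrophages, rose by 2.43 ± 0.07 and 2.33 ± 0.07. CX3CL1, a chemokine, and THBS1, the matrix protein thrombospondin-1, fell, with log2 changes of -0.98 and -0.72.

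Among abundant long noncoding RNAs the size of the change differed between lines. NEAT1, the scaffold of nuclear paraspeckles, stood at 49509.6, 44783 and 33992 in nutlin-3a lines, against 5834, 10434 and 13607 in untreated lines. MALAT1, a nuclear speckle RNA, stood at 8137, 6252 and 4295 in nutlin-3a lines, against 1484, 2428 and 2877 in untreated lines. LINC01021, also named PURPL and known as a p53-induced RNA, stood at 4808, 3607 and 2937 in nutlin-3a lines, against 541, 865 and 1088 in untreated lines. In all 3 the nutlin-3a libraries lay above the untreated ones without overlap, and line 1 had the highest treated and the lowest untreated value, line 3 the reverse. Their log2 changes in lines 1, 2 and 3 were 3.08, 2.1 and 1.32 for NEAT1, 2.45, 1.36 and 0.58 for MALAT1 and 3.15, 2.06 and 1.43 for LINC01021. With that spread none of them was called (adjusted p = 0.0657, 0.142 and 0.0605). Over the list of long noncoding RNAs 7 of 21 tested members rose and 5 fell, near the 28.4% of all tested genes called higher and the 30.4% called lower.

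A p53 full site by name, 20 letters with at most 2 mismatches on either strand, was rare in the promoters at hand under a strict rule. The core letters CWWG (W for A or T) of both parts of the site had to match exactly, with no gap between the parts. Sites with a core mismatch or a gap were not counted. Each promoter ran from 250 bases before to 50 after a RefSeq start. A site by this rule was present in 41 of 27305 promoters (0.15%), and in 15 of those of tested genes. LINC01021 held it without a mismatch from 127 bases before the start, and AEN, an exonuclease gene of p53-driven death, with 2 mismatches from 34 bases before. AEN stood at 4128, 4177 and 4162 in nutlin-3a lines, against 1565, 1693 and 2044 in untreated lines, a log2 change of 1.24 ± 0.07 (SE; adjusted p = 2.41e-07). PTCHD4 held it without a mismatch from 20 bases before the start and rose by 0.81 ± 0.12. ACTA2, DOCK8, FLG, GLS2 and SIGLEC14, all at least 2-fold higher in every line, held it with 2 mismatches. Of the 15 tested genes, VDAC2, PRPF6, PPP2R1A and LRRC49 were lower in the fit, with log2 changes of -0.37, -0.06, -0.02 and -0.75. C17orf89, TTC8 and MORC4 held it too, with log2 changes of 1.23, 0.52 and 0.70. Over all tested genes 28.4% were called higher, and 5.48% were at least 2-fold higher in every line. Both windows below are shown because their letters match the p53 site of a gene that was higher in every line, from RefSeq on GRCh38.p14, 5′ to 3′ on the strand of the gene, with the site in capitals.
LINC01021 (chr5:27472125-27472224, + strand): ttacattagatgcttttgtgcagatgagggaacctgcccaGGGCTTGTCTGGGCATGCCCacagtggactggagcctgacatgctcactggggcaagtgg
AEN (chr15:88621266-88621339, + strand): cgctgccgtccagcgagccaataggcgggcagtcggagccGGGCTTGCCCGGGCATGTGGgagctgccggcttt

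Genes of DNA replication fell almost without exception, against 30.4% of all tested genes called lower. All 27 members of the licensing list fell, 25 of them at least 2-fold in every line, with a median log2 change of -3.16 and 11.2% of the untreated value left at the median. MCM7 and MCM5, subunits of the replicative helicase, gave the smallest adjusted p. MCM7 stood at 941, 929 and 958 in nutlin-3a lines, against 7068, 6210.5 and 6804 in untreated lines, a log2 change of -2.82 ± 0.06 (SE; adjusted p = 7.24e-11). MCM5 stood at 425, 488 and 502 in nutlin-3a lines, against 4459, 4426 and 4306 in untreated lines, a log2 change of -3.22 ± 0.07 (SE; adjusted p = 7.82e-11). In both, the 3 lines lay close together under each treatment. TICRR, which loads CDC45 at origins, and RECQL4, a helicase of initiation, fell, with log2 changes of -3.76 and -3.07.

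At the fork 33 of 34 tested members fell, with a median of -2.35. POLE, the catalytic subunit of the leading strand polymerase, stood at 186, 206 and 235 in nutlin-3a lines, against 2556, 2348 and 2876 in untreated lines, a log2 change of -3.63 ± 0.08 (SE; adjusted p = 7.28e-11). ATAD2, a chromatin ATPase of S phase, stood at 273, 327 and 343 in nutlin-3a lines, against 7297, 7156 and 6722 in untreated lines, a log2 change of -4.49 ± 0.08 (SE; adjusted p = 3.52e-10). UHRF1 and DNMT1, which copy DNA methylation behind the fork, fell, with log2 changes of -2.83 and -2.21. The member not called was PCNA, the sliding clamp and also a known p53 target, at 3192, 4228 and 3509 in nutlin-3a lines, against 3882, 4078 and 4153 in untreated lines. Its libraries overlapped, and the log2 change was -0.16 ± 0.07 (adjusted p = 0.0803). Of enzymes of nucleotide synthesis 19 of 22 fell and 1 rose, with a median of -0.78. NME1, a nucleoside diphosphate kinase, was the member that rose, at 4424, 4720.3 and 5739 in nutlin-3a lines, against 2156, 2325 and 2783 in untreated lines, a log2 change of 1.03 ± 0.05 (SE; adjusted p = 3.53e-08).

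The E2F letters TTCCCGC or TTTGGCGC, searched on both strands, were held by 11 of 23 licensing promoters (47.8%) and 12 of 28 fork promoters (42.9%), against 7.14% of all 27305 promoters. They were also in 10.6% of the 47 mitosis promoters. Most of the 27305 promoters, the reference here and for the other letters below, belong to genes that were not tested. For 27 licensing and 34 fork genes tested, 23 and 28 had a promoter in the table. Within the 100 bases before the start, 11 of these 50 called genes (1 gene of the 51 not being called) held the letters. Windows of 4 of them are printed to show where the letters lie, and others that hold the letters may have fallen further. They come from RefSeq on GRCh38.p14, on the strand of the gene and ending 1 base before its start, with the E2F letters of either strand in capitals.
GINS2 (chr16:85688955-85689054, - strand): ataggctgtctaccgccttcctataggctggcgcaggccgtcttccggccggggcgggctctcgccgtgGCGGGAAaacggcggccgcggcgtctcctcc
CDT1 (chr16:88803689-88803788, + strand): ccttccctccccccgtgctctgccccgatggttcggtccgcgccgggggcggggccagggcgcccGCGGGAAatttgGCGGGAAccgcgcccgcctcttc
RFC3 (chr13:33818049-33818148, + strand): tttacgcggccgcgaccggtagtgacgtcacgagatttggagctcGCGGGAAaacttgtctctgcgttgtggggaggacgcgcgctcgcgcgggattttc
POLE (chr12:132687343-132687442, - strand): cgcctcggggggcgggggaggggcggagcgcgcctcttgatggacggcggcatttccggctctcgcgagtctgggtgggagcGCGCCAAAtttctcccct
GINS2, a subunit of the helicase complex, stood at 46.6, 43.5 and 58 in nutlin-3a lines, against 1637, 1450.1 and 1387 in untreated lines. CDT1, the licensing factor, stood at 44.7, 62.9 and 123 in nutlin-3a lines, against 1224, 1033 and 1342 in untreated lines. RFC3, a subunit of the clamp loader, stood at 35.6, 56.4 and 68.4 in nutlin-3a lines, against 802, 805 and 879 in untreated lines. None of these groups overlapped.

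Among cyclins, their kinases and E2F factors, 35 of 42 tested members fell and 2 rose, with a median of -1.95. E2F2, an activating E2F, stood at 9.12, 14.8 and 20.9 in nutlin-3a lines, against 959.8, 776 and 823 in untreated lines, a log2 change of -5.81 ± 0.25 (SE; adjusted p = 9.51e-07). CCNA2, the cyclin of S phase and G2, stood at 101, 84.3 and 129 in nutlin-3a lines, against 2967, 2837 and 2853 in untreated lines, a log2 change of -4.79 ± 0.11 (SE; adjusted p = 1.74e-09). CDK2 and CKS1B, its kinase and an adaptor subunit, fell, with log2 changes of -2.15 and -2.97. The 2 members that rose were the D-type cyclins CCND1 and CCND2, which pair with CDK4 and CDK6, while CCND3 fell, with a log2 change of -0.43. CCND2 stood at 9572, 9234 and 9083 in nutlin-3a lines, against 3482, 3290.4 and 3508 in untreated lines, and CCND1 rose by 0.87 ± 0.05. Of homologous recombination and Fanconi genes 32 of 38 fell and 2 rose, with a median of -2.77. RAD54L, a motor of strand exchange, stood at 23.7, 27.8 and 37.5 in nutlin-3a lines, against 748, 733 and 879.7 in untreated lines, while RAD51C and LIG4, the ligase of end joining, rose by 0.57 ± 0.07 and 0.52 ± 0.09.

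The mitosis list had the lowest median of the lists. All 54 tested members of the mitosis list fell, and all 54 were at least 2-fold lower in every line without overlap between the groups. The median log2 change was -4.84, and the median gene kept 3.62% of its untreated value. KIF11, the kinesin that separates spindle poles, stood at 99.5, 108 and 125 in nutlin-3a lines, against 3996, 3874 and 3791 in untreated lines, a log2 change of -5.12 ± 0.09 (SE; adjusted p = 4.08e-11). KIF18B, a kinesin that shortens astral microtubules, stood at 57, 46.3 and 73.9 in nutlin-3a lines, against 2463, 2418 and 2766 in untreated lines, a log2 change of -5.43 ± 0.10 (SE; adjusted p = 4.4e-11). The lowest change of the list was that of KIF15, a kinesin of spindle bipolarity, at 21, 20.4 and 37.1 in nutlin-3a lines, against 1382, 1451 and 1253 in untreated lines, a log2 change of -5.70 ± 0.21 (SE; adjusted p = 7.7e-07). DLGAP5, which stabilises kinetochore fibres, stood at 94, 111 and 181 in nutlin-3a lines, against 5331, 5867 and 5351 in untreated lines, a log2 change of -5.47 ± 0.24 (SE; adjusted p = 0.000382). PLK1, the polo-like kinase, and MKI67, the proliferation antigen Ki-67, named after their values were seen, were 36.7-fold and 41.1-fold lower.

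The CHR letters TTTGAA or TTTAAA, on either strand, were in 38 of the 47 mitosis promoters at hand (80.9%), against 24.3% of all promoters, 8.70% of licensing promoters and 7.14% of fork promoters. The CCAAT letters were in 78.7% of mitosis promoters, 60.9% of licensing promoters, 53.6% of fork promoters and 35.7% of all promoters. Both together were in 68.1% of mitosis promoters and 9.49% of all promoters. In 20 of the 47 both lay within 100 bases before the start. Windows of 4 of these are printed to show the pair, and others of the 20 may have fallen further. They come from RefSeq on GRCh38.p14, on the strand of the gene and ending 1 base before its start, with the CHR letters and the CCAAT letters of either strand in capitals. In MKI67 a CHR and a CCAAT element overlap.
CKAP2L (chr2:112764610-112764709, - strand): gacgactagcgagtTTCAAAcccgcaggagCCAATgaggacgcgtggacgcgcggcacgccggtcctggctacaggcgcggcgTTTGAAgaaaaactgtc
ASPM (chr1:197146670-197146769, - strand): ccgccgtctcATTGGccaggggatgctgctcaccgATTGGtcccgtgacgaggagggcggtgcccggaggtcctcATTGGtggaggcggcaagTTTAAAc
KIF4A (chrX:70290004-70290103, + strand): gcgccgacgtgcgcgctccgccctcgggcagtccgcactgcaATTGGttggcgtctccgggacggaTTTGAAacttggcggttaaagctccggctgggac
MKI67 (chr10:128126424-128126523, - strand): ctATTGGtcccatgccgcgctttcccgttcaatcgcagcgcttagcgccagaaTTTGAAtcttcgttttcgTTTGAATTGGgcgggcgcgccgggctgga
CKAP2L, a spindle protein, stood at 62.1, 51.2 and 107 in nutlin-3a lines, against 3017, 3029 and 3128 in untreated lines. ASPM, a spindle pole protein, stood at 63, 62.9 and 96.9 in nutlin-3a lines, against 2976, 3324 and 3068 in untreated lines. KIF4A, a chromosome-bound kinesin, stood at 51.1, 62 and 102 in nutlin-3a lines, against 2669.8, 3016 and 3017 in untreated lines, and MKI67 at 447, 322 and 526, against 15518, 17516 and 19409. In each of the 4 genes every nutlin-3a library was far below every untreated one. The match of letters is a description of these windows and was not tested as a binding site.

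**Figure D3:**
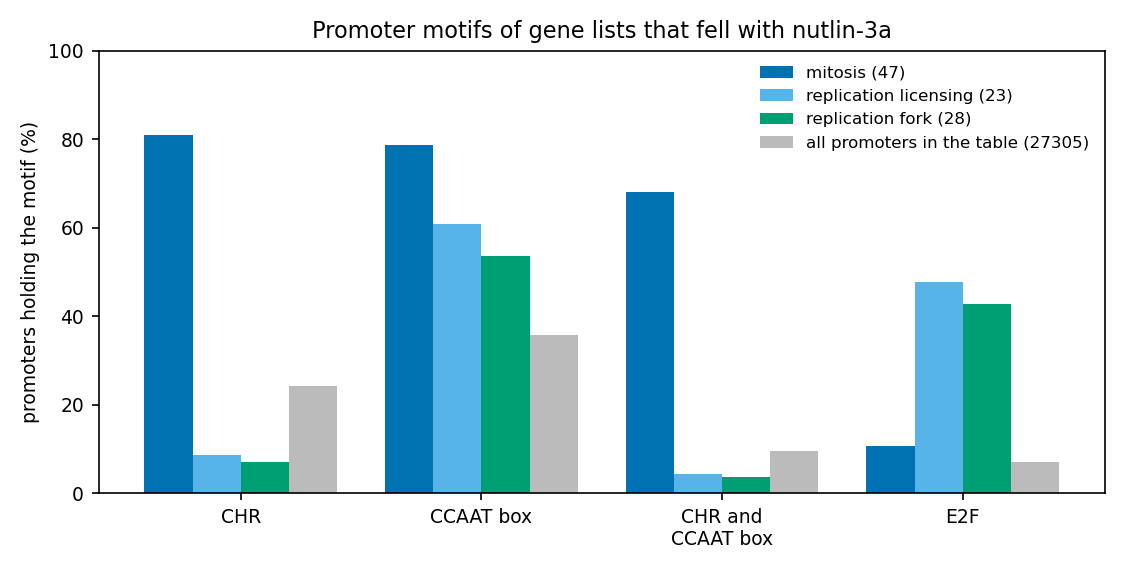
Share of promoters, from 250 bases before to 50 after the RefSeq start, that hold the CHR letters, the CCAAT letters, both, or the E2F letters, for the mitosis (47), licensing (23) and fork (28) lists and all 27305 promoters in the table. CHR letters stand out in mitosis promoters at 80.9%, and E2F letters in licensing and fork promoters at 47.8% and 42.9%.

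At the kinetochore 42 of 43 tested members fell and 1 rose, with a median of -4.03. CENPA, the histone H3 variant that marks centromeres, stood at 4.38, 6.48 and 28 in nutlin-3a lines, against 758, 788 and 939 in untreated lines, a log2 change of -6.29 ± 0.50 (SE; adjusted p = 0.00136). CENPF, an outer kinetochore protein, stood at 386, 391 and 545 in nutlin-3a lines, against 11289, 11969.6 and 12903 in untreated lines, a log2 change of -4.79 ± 0.08 (SE; adjusted p = 5.37e-11). SKA3, which couples kinetochores to microtubules, stood at 17.3, 12 and 35.4 in nutlin-3a lines, against 917, 800.4 and 995 in untreated lines, a log2 change of -5.45 ± 0.22 (SE; adjusted p = 3.02e-07). MAD1L1, a spindle checkpoint protein, was the member that rose, at 3847, 3997 and 3756 in nutlin-3a lines, against 1559, 1621 and 1825 in untreated lines.

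Of condensin and cohesin genes 21 of 22 fell, with a median of -1.52. NCAPG and NCAPH are subunits of condensin I, which compacts mitotic chromosomes, and were among the 12 lowest. NCAPG stood at 25.6, 17.1 and 47.2 in nutlin-3a lines, against 1462, 1458 and 1472 in untreated lines, and NCAPH at 44.7, 51.8 and 99.8, against 2858, 2777 and 2905. ESCO2, the cohesin acetyltransferase of S phase, stood at 11.8, 11.8 and 31.3 in nutlin-3a lines, against 992, 941 and 879 in untreated lines. RAD21, the cohesin subunit cut at anaphase, fell, with a log2 change of -1.63. Chromatin and nuclear envelope genes tied to S phase fell in 29 of 31 cases, with a median of -1.82. LMNB1, the nuclear lamin whose loss is a known mark of senescence, stood at 391, 334 and 433 in nutlin-3a lines, against 6405, 6451 and 6907 in untreated lines, a log2 change of -4.10 ± 0.07 (SE; adjusted p = 4.08e-11). Of 31 histone genes fixed in the list only 15 passed the filter, and 10 of these fell, 6 when line 2 was left out.

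FAM111B, SAPCD2 and ZNF519, also among the 12 lowest, are in none of the lists. FAM111B, a protease gene, stood at 19.2, 23.1 and 38 in nutlin-3a lines, against 2053, 1889 and 1871 in untreated lines, a log2 change of -6.18 ± 0.21 (SE; adjusted p = 7.53e-07). SAPCD2, a regulator of spindle orientation, stood at 35.6, 26.8 and 57 in nutlin-3a lines, against 1755, 1664 and 1764 in untreated lines, a log2 change of -5.47 ± 0.18 (SE; adjusted p = 3.62e-07). ZNF519, a zinc finger gene, was listed at 0.00848, 11 and 0.0706 in nutlin-3a lines, against 249, 166 and 224 in untreated lines, a log2 change of -6.49 ± 1.11 (SE; adjusted p = 0.0186). Its nutlin-3a values include estimates near 0, and its call was lost without line 1 (adjusted p = 0.077) or line 3 (0.062) and with a pseudocount of 0.1 (0.051).

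**Figure D4:**
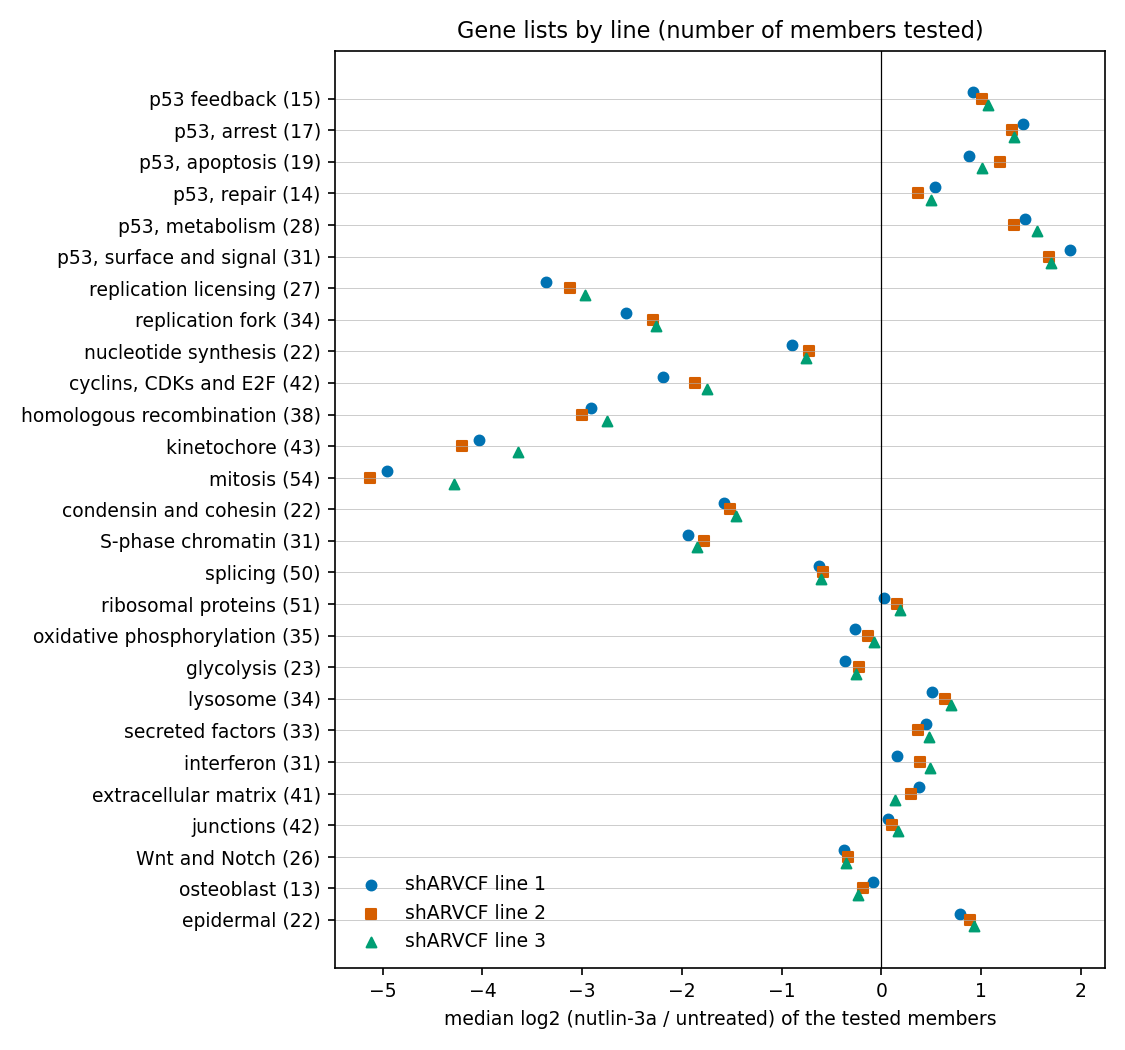
Median log2 change with nutlin-3a of the tested members of each gene list, with 1 symbol per shARVCF line and the number of members tested in brackets. The 3 lines agree in sign for the p53, replication and mitosis lists, and line 3 has the smallest fall in the mitosis and kinetochore lists.

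Outside p53 targets and the cell cycle most lists held changes in both directions, and their counts are read against the 28.4% of all tested genes called higher and the 30.4% called lower. Splicing factors fell in 44 of 50 cases but by little, with a median of -0.62 and only 2 members at least 2-fold lower in every line. HNRNPC, an abundant RNA-binding protein, averaged 7149.7 ± 381 in nutlin-3a lines and 13957 ± 335 in untreated lines (SD, n = 3 each). MBNL2, the muscleblind splicing factor, was 1 of 2 that rose, by 0.61 ± 0.07. Ribosomal protein genes had a median of 0.13, with 21 of 51 higher and 1 lower. Ribosome biogenesis genes were split, 5 of 27 higher and 12 lower. The count of ribosomal protein genes that rose was 32 without line 1, 8 without line 2 and 9 without line 3. RPS19, a protein of the small subunit, stood at 17625, 19317 and 19517 in nutlin-3a lines, against 10829.7, 9643 and 11482 in untreated lines.

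In metabolism the respiratory chain list had 15 of 35 members lower and 3 higher, and the glycolysis list 12 of 23 lower and 7 higher. LDHA, lactate dehydrogenase A, stood at 9475, 10061 and 11961 in nutlin-3a lines, against 19361, 18096 and 21980.1 in untreated lines, a log2 change of -0.92 ± 0.06 (SE; adjusted p = 1.57e-07). SLC2A3, a glucose transporter, stood at 5444, 6675 and 5209.8 in nutlin-3a lines, against 1637, 2631 and 1996 in untreated lines, a log2 change of 1.49 ± 0.08 (SE; adjusted p = 2.72e-07). Lysosome and autophagy genes rose in 26 of 34 cases, with a median of 0.63. SQSTM1, the autophagy adaptor p62, stood at 12216, 16707 and 17284 in nutlin-3a lines, against 5377, 6904 and 5965 in untreated lines. GRN and TPP1, progranulin and a lysosomal peptidase, rose by 1.05 ± 0.06 and 1.28 ± 0.06, while GLA, a galactosidase, fell, with a log2 change of -1.18. Cholesterol and fatty acid synthesis was split, 12 of 28 higher and 7 lower. The stress list was split too, 13 of 32 higher and 10 lower. PHGDH, the first enzyme of serine synthesis, stood at 737, 635 and 1252 in nutlin-3a lines, against 4230.4, 2990.1 and 4464 in untreated lines, and HMOX1, heme oxygenase 1, at 2019, 1627 and 5203, against 756, 667 and 1568. HMOX1 was highest in line 3 under either treatment, and its call was lost without the block (adjusted p = 0.056).

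Secreted factors and NF-kB targets rose in 21 of 33 cases and fell in 6, and 13 were called higher without the block. AREG, an EGF receptor ligand, stood at 841, 848 and 968 in nutlin-3a lines, against 62.7, 91.2 and 98.6 in untreated lines, a log2 change of 3.40 ± 0.12 (SE; adjusted p = 2.02e-09). BIRC3, an inhibitor of apoptosis, rose by 2.2 ± 0.08, whereas PLAU, urokinase, fell, with a log2 change of -1.19. CXCL8, the chemokine interleukin 8, stood at 53, 25 and 89.3 in nutlin-3a lines, against 126, 35.3 and 123 in untreated lines, and its call was lost without line 1 (adjusted p = 0.11) or without the block (0.38). Interferon response genes rose in 14 of 31 cases and fell in 3, and 7 were called higher without the block. ISG15, a ubiquitin-like modifier, stood at 437, 950.1 and 763 in nutlin-3a lines, against 138, 302 and 178 in untreated lines, while CMPK2 and USP18 of the same response fell, with log2 changes of -1.41 and -1.12.

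The matrix list held 20 of 41 members higher and 11 lower. COL17A1, a hemidesmosomal collagen, stood at 568, 806 and 744 in nutlin-3a lines, against 31, 41.8 and 60.1 in untreated lines, a log2 change of 4.0 ± 0.15 (SE; adjusted p = 2.41e-09). COL3A1, a fibrillar collagen, stood at 417, 355 and 60.02 in nutlin-3a lines, against 1693, 1824 and 381 in untreated lines, a log2 change of -2.34 ± 0.12 (SE; adjusted p = 1.63e-07). The groups of COL3A1 overlap, with line 3 low under both treatments, and each line was lower with nutlin-3a. Without the block the call was lost (adjusted p = 0.097). Of cadherins, catenins, junction and integrin genes 20 of 42 rose and 12 fell, and 12 were called higher without the block. ITGB3, the beta subunit of the vitronectin receptor, stood at 101, 214 and 177 in nutlin-3a lines, against 855, 1441 and 997 in untreated lines, a log2 change of -2.76 ± 0.11 (SE; adjusted p = 1.04e-08). CTNND1, p120 catenin and the founding relative of ARVCF, fell, with a log2 change of -0.22 ± 0.05 (SE; adjusted p = 0.00428). Its groups overlap, and its call was also lost without the block (adjusted p = 0.15).

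YAP and TGF-beta targets rose in 16 of 28 cases and fell in 4, and Wnt and Notch genes rose in 3 of 26 and fell in 15. CYR61, a matricellular YAP target, stood at 14466, 10436 and 12758 in nutlin-3a lines, against 3789, 3459.8 and 3334 in untreated lines, a log2 change of 1.82 ± 0.07 (SE; adjusted p = 2.42e-08). SMAD6, an inhibitor of BMP signalling, stood at 55.7, 61.1 and 50.4 in nutlin-3a lines, against 195, 263 and 239 in untreated lines, a log2 change of -2.03 ± 0.16 (SE; adjusted p = 7e-07). FZD7, a Wnt receptor, fell, with a log2 change of -1.28. Immediate early and MAP kinase feedback genes rose in 13 of 29 cases and fell in 8. DUSP1 and DUSP10, phosphatases of stress kinases, rose by 1.51 ± 0.08 and 1.71 ± 0.12, and SPRY4 and DUSP6, which restrain ERK, fell, with log2 changes of -1.24 and -1.30. DUSP6 was low throughout, at 8.22, 10.2 and 9.5 in nutlin-3a lines, against 21.2, 26.3 and 25.4 in untreated lines.

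Keratins and cornified envelope genes moved both ways, 12 of 22 tested members higher and 4 lower. The LCE1B and LCE1C genes and the basal keratin KRT17 rose, as above, while KRT5, KRT14, KRT16 and KRT80 fell. KRT14 stood at 65.7, 78.6 and 33.3 in nutlin-3a lines, against 448, 363 and 195 in untreated lines, a log2 change of -2.49 ± 0.15 (SE; adjusted p = 1.15e-07). KRT5, its partner, stood at 7.06, 1.11 and 3.64 in nutlin-3a lines, against 22.5, 21.8 and 16.5 in untreated lines. Neuronal genes rose in 8 of 23 cases and fell in 7, near the shares of all tested genes, and 4 were called higher without the block. NEFL, a neurofilament, rose by 2.28 ± 0.08, and NCAM1, an adhesion molecule, fell, with a log2 change of -1.95. Genes often used as references moved too: 10 of 16 fell and 3 rose. ACTB, beta-actin, averaged 70502 ± 3087 in nutlin-3a lines and 102730.0 ± 7617 in untreated lines (SD, n = 3 each).

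Osteoblast lineage genes were checked against the label of the cell line. RUNX2, the lineage factor, stood at 1105, 1035 and 778 in nutlin-3a lines, against 1444, 1232 and 1115 in untreated lines, and SPARC, COL1A1 and VIM had values of 27686 or more in each of the 6 libraries. SP7 and IBSP were at 1.96 or less in each library, and BGLAP at 3.30 or less. COL1A2, the partner chain of COL1A1, was between 1.83 and 14.8. DLX5 was at 0.85 or less, and TWIST1 and OMD were listed at 0 in each library. Of 13 tested members 5 rose and 6 fell, 2 of them called lower without the block. ALPL, bone alkaline phosphatase, stood at 633, 438 and 792 in nutlin-3a lines, against 198, 123 and 218 in untreated lines, a log2 change of 1.79 ± 0.10 (SE; adjusted p = 4.42e-08), and CD44, a hyaluronan receptor, rose by 1.44 ± 0.06. BMP2 rose by 1.16 ± 0.12.

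Markers of other cell types were low. The summed value of 14 blood and myeloid markers was 146 to 454 in nutlin-3a lines and 56.6 to 194 in untreated lines, with 4 markers above 10 in any library and 5 at 1 or less in every one. CD68 and ITGAM were the members that rose, and CD68, a lysosomal glycoprotein of macrophages, stood at 103, 253 and 379.9 in nutlin-3a lines, against 30.6, 133 and 153 in untreated lines. The groups of CD68 overlap, and without the block it was not called (adjusted p = 0.18). The sums of blood and myeloid markers moved with TREM2, but CD68 made up most of the highest sum. PTPRC was lower with nutlin-3a in each line, at 2.74, 9.25 and 1.90, against 8.04, 9.80 and 12.7 in untreated lines. TYROBP and AIF1 were at 1 or less in every library, and SPI1 was between 2.43 and 4.10. CSF1R was higher with nutlin-3a in each line. The part of these markers in the rise of TREM2 was not tested. Of 10 epithelial markers 3 exceeded 10, with sums of 221 to 296 in nutlin-3a lines and 307 to 327 in untreated lines. The sums of 8 endothelial markers were 347 to 489 in nutlin-3a lines and 246 to 504 in untreated lines, and 3 of the 7 tested fell. The sums of 6 neural and glial markers were 511 to 828 in nutlin-3a lines and 213 to 332 in untreated lines, where RBFOX3 stood at 421, 419 and 667 in nutlin-3a lines, against 89.1, 102 and 196 in untreated lines.

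The lines differed in how far p53 targets stood above 0 before the drug. Of the 94 members of the p53 lists that rose, 71 had their lowest untreated value in line 1, 75.5% of them, against 32.6% of all tested genes. The median ratio of untreated values to line 1 was 1.18 in line 2 and 1.28 in line 3 for these 94 genes, and 1.00 and 0.991 for all tested genes. Under nutlin-3a the ratios were closer to 1, with medians of 1.04 in line 2 and 1.08 in line 3. The change was largest in line 1 for 61 of the 94 (64.9%), against 41.3% of all tested genes, but the median log2 changes of the 94 were close, at 1.55, 1.51 and 1.60 in lines 1, 2 and 3. CDKN1A followed that order without the drug, and so did GADD45A, at 4567, 4578 and 4635 in nutlin-3a lines, against 519, 641 and 774 in untreated lines. Since each line has 1 untreated library, this order has no replicate.

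Mitotic genes showed the other pattern, with lines alike before the drug and apart after it. Of the 96 members of the mitosis and kinetochore lists that fell, 84 had their highest nutlin-3a value in line 3, 87.5% of them, against 38.6% of all tested genes. The median ratio of nutlin-3a values to line 1 was 1.53 in line 3 and 0.974 in line 2. In untreated lines the same ratios were 1.04 and 0.999. The fall was smallest in line 3 for 85 of the 96 genes (88.5%), and line 3 had the smallest change for 34.5% of all tested genes. Median log2 changes of the 96 were -4.79, -4.86 and -4.12 in lines 1, 2 and 3. For the 60 licensing and fork genes that fell, line 3 had the highest nutlin-3a value in 45 (75%), against 38.6% of all tested genes. Line 1 had the lowest in 43 (71.7%), against 41.7% of all tested genes. Each line has its own shRNA and clone, and a lower share of arrested cells and a smaller fall per cell cannot be told apart in bulk RNA.

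**Figure D5:**
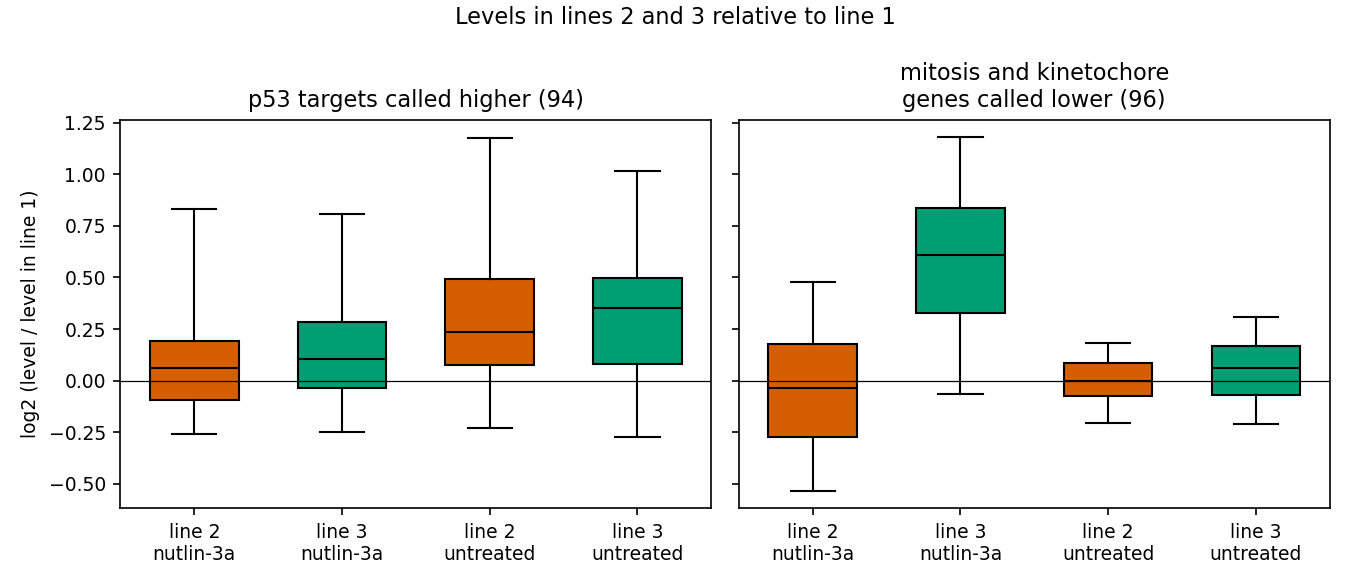
Log2 ratio of the level in lines 2 and 3 to that in line 1, under nutlin-3a (left pair of each panel) and untreated (right pair), for the 94 p53 targets called higher and the 96 mitosis and kinetochore genes called lower. Boxes span the quartiles with the median, whiskers the 5th to 95th percentile of genes; p53 targets are spread above 0 in untreated lines, and mitotic genes in nutlin-3a line 3.

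Few genes went opposite ways between lines. Only 75 genes were at least 2-fold higher in 1 line and at least 2-fold lower in another, 16 of them with a mean of at least 50. U2AF1, a splicing factor gene, was listed at 10, 857 and 817 in nutlin-3a lines, against 805, 482 and 39.1 in untreated lines. Such jumps between libraries also occurred in EEF1D, listed at 62.6, 129 and 108 in nutlin-3a lines, against 889, 72.5 and 54.4 in untreated lines. No call was made on U2AF1 or EEF1D, and without line 1 both changed direction. Without line 1 the change of EEF1D was 0.90 with an adjusted p of 0.00372. CASP8AP2, COMMD3-BMI1 and RN7SL2 were also among the 6 genes of mean at least 200 with the widest range of log2 change between lines. COMMD3-BMI1, a read-through transcript, was listed at 604, 544 and 266 in nutlin-3a lines, against 123, 0.314 and 54.4 in untreated lines. Some genes that every cell uses were listed at or near 0 in all libraries, such as TUBB, at 0, 0 and 0 in nutlin-3a lines and at 0, 0.98 and 0 in untreated lines. A value of 0 in this table is therefore not read as absence.

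Set against the response of the control line, 4756 of 14955 genes (31.8%) differed in a model over all 10 libraries, in which the lone untreated control library is assumed to vary like the others. Of the genes named in every case or by rank, 7 differed. That model has no block for the line, and with it 5764 genes differed, TREM2, CYP4F3, PADI4 and SKA3 among them (adjusted p = 0.049, 0.026, 0.028 and 0.037). MDM2 rose more in the shARVCF lines, by 1.03 ± 0.23 on the log2 scale (SE; adjusted p = 0.00542). LCE1C rose less, with a difference of -3.55 ± 0.63 (adjusted p = 0.00141). LCE1C was listed at 0 in the untreated control library, so this difference depends on the added 1. FAM111B, ESCO2, KIF15, SAPCD2 and DLGAP5 fell less than in the control line, and of these FAM111B, ESCO2 and SAPCD2 were not called without the 2 control nutlin-3a libraries of replicates 2 and 3 (adjusted p = 0.083, 0.10 and 0.13). CDKN1A did not pass the test, with a difference of 0.12 ± 0.30 (adjusted p = 0.802), nor did ARVCF, with -0.15 ± 0.18 (adjusted p = 0.564). Across 14260 genes with a spliced length, the rank correlation of the response with length was -0.02 in the shARVCF lines, -0.43 in the control line and 0.58 for the difference. The part of this length trend in the differences was not tested.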

How the data were processed

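Stranded mRNA libraries were sequenced, per the labels' protocols. Per the submitters' processing notes, bcl2fastq 1.8.3, HISAT2 2.1.0, Cuffnorm 2.2.1 and hg38 were used. No source names the gene annotation. Each deposited value is a signal: the authors' fragment estimate for a gene after library-wise scaling, not divided by gene length. As the values are neither whole nor raw, a test for counts was not used.

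From them, log2(value + 1) was fitted with limma 3.58.1 in R 4.3.3 on the 6 shARVCF libraries, with nutlin-3a as the effect and the line as a block, trended and robust variance moderation, and Benjamini-Hochberg adjustment over the 14574 genes that reached 10 in 3 or more libraries. Tests were two-sided, and genes were called at an adjusted p under 0.05. The numbers pair the libraries, as each number is a line with its own shRNA. Residuals from the mean of each treatment correlated at 0.27, 0.33 and 0.36 across genes for the 2 libraries of a line. Those of different lines correlated between -0.23 and -0.08. As the residuals of a treatment cancel over its 3 lines, negative values between lines are partly built in once those within a line are positive. In data simulated for this comparison over 14267 genes, 88.9% of 2-fold and 95.8% of 4-fold changes were recovered, with 29 false calls. Those false calls were a larger share of the simulated calls than the threshold of 0.05. The simulation changed 200 genes with independent noise, far fewer than the 8566 called in the data, so its rates need not hold here. Depth per library before scaling is unknown, so no counting interval is given.

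Gene lists and members were chosen with earlier results of these data known. Named genes were ARVCF, MDM2 and CDKN1A; the 12 highest and 12 lowest log2 changes of called genes whose mean reached 50, whose treated and untreated libraries do not overlap and which moved 2-fold or more in every line, leaving out symbols of noncoding, LOC, open reading frame and pseudogene kinds; the 6 highest means among called genes at least 2-fold higher, and among those at least 2-fold lower, in every line; up to 4 members of each list by adjusted p with any called member against the majority; the 6 genes of mean 200 or more with the widest range between lines; and markers of other cell types above 10. Not every such gene is printed, some results are not reported here, and MDM4, PCNA, NEAT1, MALAT1, LINC01021, RUNX2, TUBB and the others outside the rule were chosen after their values were seen, or by a motif or threshold stated beside them. Of the tested genes, 11535 had a RefSeq promoter (GRCh38.p14), under 80% of them. The motif shares of genes at least 2-fold higher or lower in every line, of all called genes and of the kinetochore list are therefore void and are not given. Gene positions are from GENCODE release 29. Alternatives were other pseudocounts, filters, scalings, moderation, no block and leaving out each line. Figures were drawn with matplotlib 3.10.9 in Python 3.11.15.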

Additional observations from a re-analysis of the deposited data

Results flagged for a closer look

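Of the genes named in every case or by rank, 7 changed by a different amount in the shARVCF lines and in the control line. The test was of the difference of the nutlin-3a effects over all 10 libraries. Over all genes in that test 4756 of 14955 (31.8%) differed. A difference by itself therefore does not set these 7 genes apart. MDM2 differed by 1.03 ± 0.23 on the log2 scale (SE; adjusted p = 0.00542), with an effect of 3.25 in the shARVCF lines and 2.22 in the control line. LCE1C differed by -3.55 ± 0.63 (adjusted p = 0.00141), with 5.77 in the shARVCF lines and 9.32 in the control line. KIF15 differed by 2.94 ± 0.69 (adjusted p = 0.00735), with -5.70 in the shARVCF lines and -8.64 in the control line. DLGAP5 differed by 1.87 ± 0.34 (adjusted p = 0.00176), with -5.47 and -7.33. ESCO2 differed by 1.83 ± 0.60 (adjusted p = 0.0346), with -5.75 and -7.58. FAM111B differed by 1.59 ± 0.52 (adjusted p = 0.0362), with -6.18 and -7.77. SAPCD2 differed by 1.52 ± 0.53 (adjusted p = 0.0485), with -5.47 and -6.99. In the control line KIF15 stood at 6.02, 1.29 and 1.29 with nutlin-3a and at 1328 untreated, while LCE1C stood at 693, 692 and 541 with nutlin-3a and was listed at 0 untreated, so its difference depends on the added 1. With the line as a block TREM2, CYP4F3, PADI4 and SKA3 differed as well, by -2.12, 1.70, -0.76 and 1.27. With a pseudocount of 10 the differences of ESCO2 and FAM111B were 0.93 and 0.90 and were not called (adjusted p = 0.10 and 0.066). Every control effect rests on 1 untreated library. Across 14260 genes the difference also rose with spliced length, with a rank correlation of 0.58. The part of this length trend in the 7 differences was not tested.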

How the results depend on the processing

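The total called was 8566, with 4141 higher and 4425 lower, and lay between 6394 and 8625 under every alternative run. Without the replicate block 6419 genes were called over the 6 libraries and 6394 over all 10, and leaving out 1 line gave 7230 to 7971. Genes at least 2-fold in every line numbered 640 to 962 higher and 829 to 1178 lower over the alternatives.

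With no replicate block over 6 libraries, members higher were 7 for interferon, 12 for junctions, 4 for neuronal genes, 10 for ribosomal proteins, 13 for secreted factors, 1 for blood markers and 0 for epithelial markers, and 2 osteoblast genes were lower. With no block over all 10 libraries they were 9 for interferon, 13 for junctions, 5 for neuronal genes, 3 for ribosomal proteins, 1 for blood markers and 0 for epithelial markers, with 3 osteoblast and 6 respiratory chain genes lower. Under plain moderation 6 cholesterol, 7 ribosomal protein and 2 neural marker genes were higher and 9 respiratory chain genes lower. With a filter of 50 in 3 libraries 5 histones were lower, 1 blood and 0 epithelial markers higher and 0 endothelial markers lower. Leaving out a line gave 8 to 32 ribosomal protein genes and 0 to 1 epithelial markers higher and 6 to 10 histones lower. The mitosis and licensing lists kept 54 and 27 called without any 1 line. Among named genes EEF1D ran from -1.49 without line 3 to 0.90 without line 1, where it was called. U2AF1 without line 1, at 2.59, and RN7SL2 without line 2, at 0.43, also changed direction, uncalled. The cause was not tested for any of these, beyond the fewer libraries or genes of each alternative.

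Of the 7 differences from the control line, 3 were not called without control nutlin-3a replicates 2 and 3: FAM111B (adjusted p = 0.083), ESCO2 (0.10) and SAPCD2 (0.13). FAM111B and ESCO2 also lost the call with a pseudocount of 10, SAPCD2 with upper-quartile (0.063) or median-of-ratios scaling (0.056), and each of the 3 when at least 1 line was left out, while MDM2, LCE1C, KIF15 and DLGAP5 were called under every alternative run. With the line as a replicate block 5764 genes differed, against 4756 without it, and TREM2, CYP4F3, PADI4 and SKA3 were added. The alternative for promoter motifs was not used, as too few of the genes had a promoter. Genes near 0 and genes listed at 0 are limited by the scaled estimates, whose depth is unknown.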

Other observations

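A group of genes that are known for their activity in the early cleavage embryo rose from very low values. They were collected as a list after their values were seen, so their counts carry no test. Of 34 members 17 passed the filter, 16 of these rose and 15 were at least 2-fold higher in every line. Over all tested genes 28.4% were called higher and 5.48% were at least 2-fold higher in every line. Members near 0 in untreated lines could pass the filter only through the nutlin-3a libraries. For such members a rise was largely fixed in advance, and the counts do not show how often the group rose. KLF17, which did not pass, went the other way, at 0, 0 and 0.95 in nutlin-3a lines, against 7.15, 16.7 and 22.9 in untreated lines. ZSCAN4, a telomere-linked zinc finger gene of that stage, stood at 246, 193 and 266 in nutlin-3a lines, against 3.57, 8.82 and 18.7 in untreated lines, a log2 change of 4.61 ± 0.38 (SE; adjusted p = 5.27e-05). TRIM43 stood at 127, 144 and 118 in nutlin-3a lines, against 2.68, 10.8 and 10.2 in untreated lines, and TRIM48 at 161, 178 and 143, against 1.79, 9.8 and 11. In each of the 3 genes line 1 had the lowest untreated value. DUX4, the factor known to drive this group in other cells, was at 1.9 or less in each of the 6 shARVCF libraries, and at 2.01, 5.15 and 1.29 in the control line with nutlin-3a and at 0 untreated. Several members are near-identical copies whose reads could be shared. The control line showed values of the same kind, with ZSCAN4 at 317, 393 and 307 with nutlin-3a and at 8.22 untreated.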
